A study of Mus musculus with 6 samples.

Results

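The regions described here held a called H3K4me3 peak in all 6 conditions, yet consisted mostly of repeated DNA and lay away from annotated gene starts. They were chosen by merging the overlapping peaks of the 6 deposited lists and keeping the merged regions on chromosomes 1 to 19 that overlapped a peak of every list, had at least 50% soft-masked bases in the GRCm38 reference and lay over 1 kb from every GENCODE M21 transcript start. Soft-masked bases are those the reference writes in lower case, which marks interspersed and simple repeats. Of 61171 merged regions, 20904 lay on chromosomes 1 to 19 and in all 6 lists, 8710 of these were over 1 kb from a start, and 207 met the rule. These 207 were 2.38% of the distal common regions (95% Wilson interval 2.08 to 2.72%). In 8 of the 207 no single base was covered by a peak of all 6 lists.

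The lists came from H3K4me3 ChIP-Seq of STHdh cells, immortalised striatal progenitor cells of the mouse that serve as a model of Huntington's disease, all with the strain label C57BL/6 and all kept for 24 hours in medium without serum. Q7SST was the wild-type line with vehicle and Q111SST was the mutant line, whose Huntingtin gene carries an expanded run of glutamine codons, with vehicle. The other 4 lists came from the mutant line given 10 uM of cyproheptadine or meclizine (antihistamines), loxapine (an antipsychotic) or DKI (diacylglycerol kinase inhibitor II). Wild-type and mutant cells are separate lines, so genotype and line cannot be told apart. Each condition had 1 list of 30758 to 45564 peaks, the read depth was unknown and no test between conditions was possible, so all differences below are between lists and have no replicate error. All 5 comparisons shared the Q111SST list. As a check of the cell type, a peak lay within 1 kb of a start of Vim, Dlx1, Dlx2, Meis2 and Foxp1 in all 6 lists, of Nes and Sox2 in 5, of Pax6 and Ppp1r1b in 4, of Gsx2 in 1, and of Drd1, a receptor of mature striatal neurons, in 0.

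H3K4me3 marks the nucleosomes around active transcription starts, most of all at CpG-rich promoters. Mouse DNA also holds many copies of retroelements with long terminal repeats, which carry promoters of their own and are normally kept silent by DNA methylation and repressive chromatin. Such an element starts its reverse transcription from a host tRNA, so that next to its terminal repeat it holds a short stretch complementary to the tRNA's last bases. Other repeats are tandem arrays, such as the satellite DNA beside centromeres. A read from a repeat can align to several copies, and the reads here had 50 bases, so each region was also described by the share of its 50-base windows found at 1 place only in the reference.

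The sequences of 3 regions that were among the strongest of the Q111SST, cyproheptadine, loxapine and DKI lists are shown because they shared words with one another. All sequences are GRCm38, plus strand, 5′ to 3′. Capitals mark 15-base words that also occur, on either strand, in both other regions. In these 300-base windows 165, 137 and 121 bases were so marked, and the region near Gm9634 held them on the opposite strand.
Gm33838, chr9:35305283-35305582: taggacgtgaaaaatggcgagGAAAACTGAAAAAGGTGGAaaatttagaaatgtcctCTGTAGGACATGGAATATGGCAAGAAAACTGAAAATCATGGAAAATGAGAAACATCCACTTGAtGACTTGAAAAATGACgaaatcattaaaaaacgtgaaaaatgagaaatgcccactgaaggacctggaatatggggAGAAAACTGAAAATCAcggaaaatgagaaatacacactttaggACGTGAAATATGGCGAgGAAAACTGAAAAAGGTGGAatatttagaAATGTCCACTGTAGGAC
Gm9075, chr12:3109817-3110116: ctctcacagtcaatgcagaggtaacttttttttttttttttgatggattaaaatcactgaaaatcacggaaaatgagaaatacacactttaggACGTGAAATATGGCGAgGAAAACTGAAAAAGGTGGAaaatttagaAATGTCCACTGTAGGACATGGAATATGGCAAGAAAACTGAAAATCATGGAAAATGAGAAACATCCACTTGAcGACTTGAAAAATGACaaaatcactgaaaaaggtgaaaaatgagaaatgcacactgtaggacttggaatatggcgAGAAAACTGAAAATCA
Gm9634, chr13:77438769-77439068: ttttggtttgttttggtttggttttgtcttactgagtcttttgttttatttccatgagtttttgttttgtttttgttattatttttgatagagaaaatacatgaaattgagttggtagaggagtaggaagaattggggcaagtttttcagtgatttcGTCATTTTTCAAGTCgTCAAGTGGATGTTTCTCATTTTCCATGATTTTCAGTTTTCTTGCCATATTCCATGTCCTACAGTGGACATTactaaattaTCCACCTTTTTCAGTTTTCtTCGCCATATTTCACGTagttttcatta

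The next sequences show what the larger groups of regions with shared sequence held. In the first 3, capitals mark an exact 18-base match to the complement of a tRNA's 3′ end with its added CCA, which reads on the minus strand where the capitals end in CCA. The regions near Slc19a2 and Gm12791 matched 2 glutamine tRNA ends, and the region near Gpsm1 matched an end shared by phenylalanine and serine tRNAs.
Slc19a2, chr1:164224477-164224554: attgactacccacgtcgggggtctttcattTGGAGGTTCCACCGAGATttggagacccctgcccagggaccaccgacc
Gm12791, chr4:101871392-101871469: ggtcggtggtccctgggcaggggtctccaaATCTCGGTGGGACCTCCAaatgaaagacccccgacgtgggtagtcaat
Gpsm1, chr2:26338056-26338133: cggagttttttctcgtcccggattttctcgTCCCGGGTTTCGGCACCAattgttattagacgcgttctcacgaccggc

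In the next pair, from 2 narrow regions, capitals mark the longest run of 50-base windows found over 30 times in the genome, which ran in opposite directions on the strand shown. Windows wholly in the flank were found once near Tmprss12, while near AC132253.1 none was and the most frequent occurred 14713 times.
Tmprss12, chr15:100272611-100272790: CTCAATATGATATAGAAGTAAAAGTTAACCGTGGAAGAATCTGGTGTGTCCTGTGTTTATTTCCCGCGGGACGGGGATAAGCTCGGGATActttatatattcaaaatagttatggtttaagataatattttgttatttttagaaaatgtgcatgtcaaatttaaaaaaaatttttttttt
AC132253.1, chr19:9828758-9828937: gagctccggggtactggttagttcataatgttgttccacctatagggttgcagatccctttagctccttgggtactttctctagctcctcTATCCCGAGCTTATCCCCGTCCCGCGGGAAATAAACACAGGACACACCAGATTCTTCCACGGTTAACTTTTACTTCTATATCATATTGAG

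The last pair are the region with the largest share of perfect short repeats, with the repeats in capitals, and the region whose rank was lowest in Q7SST relative to Q111SST, with each CpG in capitals.
Gm5466, chr2:181928601-181928800: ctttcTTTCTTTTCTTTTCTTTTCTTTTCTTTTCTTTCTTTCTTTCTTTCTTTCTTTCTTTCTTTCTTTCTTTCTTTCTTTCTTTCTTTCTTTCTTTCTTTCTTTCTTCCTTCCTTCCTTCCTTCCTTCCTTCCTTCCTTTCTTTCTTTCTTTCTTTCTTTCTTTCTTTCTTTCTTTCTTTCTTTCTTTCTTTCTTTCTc
Dhdh, chr7:45491203-45491402: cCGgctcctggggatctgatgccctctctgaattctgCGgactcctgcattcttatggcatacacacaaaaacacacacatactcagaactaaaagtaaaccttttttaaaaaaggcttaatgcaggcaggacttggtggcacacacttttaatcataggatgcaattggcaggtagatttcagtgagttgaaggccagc

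The 207 regions differed from the other distal common regions in CpG content more than in size. They also differed in copy number, which the choice of masked regions in part sets. Their median width was 1242 bp (95% interval over regions 1114 to 1321 bp), beside 1254 bp (1243 to 1266 bp) for the 8503 other distal regions and 1970 bp for the 12194 regions within 1 kb of a start. The masked share, which the rule used, had a median of 67.7%, with 132 regions from 50 to under 75%, 75 at or above 75% and 19 fully masked. Median GC content was 45.9% (43.9 to 47.1%) beside 43.7% (43.5 to 43.8%) in the other distal regions. The ratio of observed to expected CpG, which is low where methylated CpG has decayed, had a median of 0.379 (0.287 to 0.470) beside 0.211 (0.208 to 0.214) in the other distal regions and 0.596 near starts. The criteria for a CpG island (at least 200 bases, 50% GC and a ratio of 0.6 over the whole region) were met by 43 regions (20.8%, Wilson interval 15.8 to 26.8%), by 2.33% of the other distal regions and by 37.5% of those near starts. These intervals run over regions and not over replicates, and regions of 1 repeat family are not independent.

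The median share of 50-base windows found at 1 place in the genome was 34.1% among the 207 regions and 100% in both other classes. Under 50% of the windows were unique in 112 regions (54.1%), beside 82 of 8503 other distal regions (0.964%), and 30 regions had no unique window at all. At the other end, 69 regions (33.3%) had at least 90% unique windows. How the authors treated reads with several equally good alignments was not stated, and the part of such reads in the scores was not tested. The median CpG ratio was 0.742 in the 71 regions with under 10% unique windows and 0.148 in the 69 with at least 90%, as the plot of uniqueness against CpG content shows. The classes overlapped, since the ratios went from 0.119 to 0.872 in the first and from 0.0245 to 0.669 in the second.

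**Figure D1:**
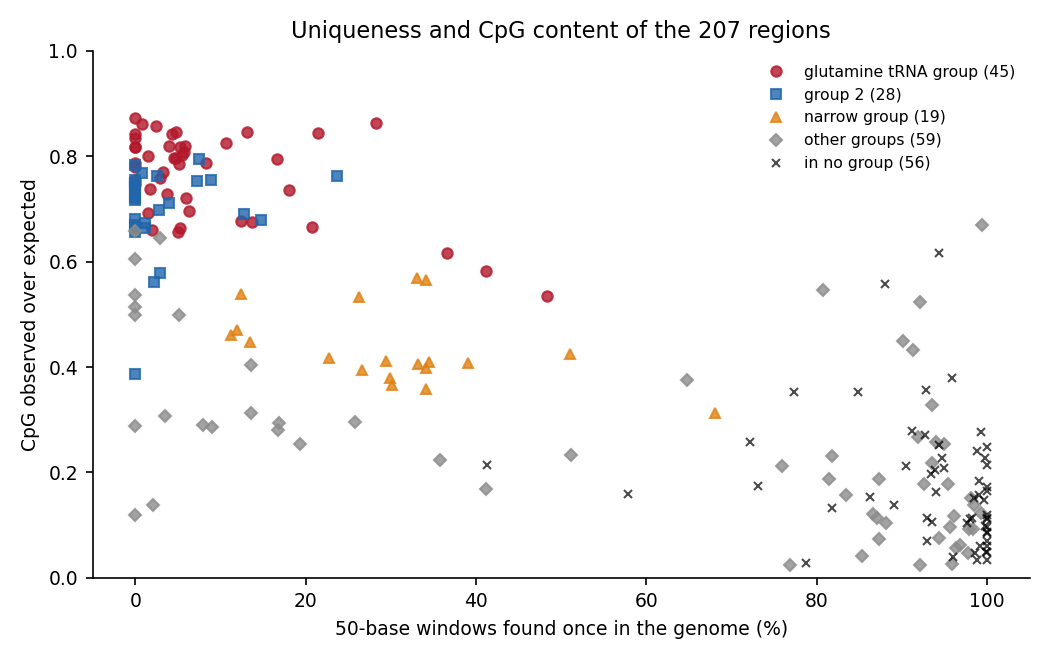
Each point is 1 of the 207 regions, with the share of its 50-base windows found at 1 place in the genome (percent) on the x axis and its observed over expected CpG ratio on the y axis, and the symbols give the sequence-sharing group. The glutamine tRNA group and group 2 sit at the upper left, with median ratios of 0.787 and 0.718, and the narrow group has a median ratio of 0.411 at 30.1% unique windows.

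By position, 117 regions (56.5%) lay between genes, 78 (37.7%) in introns and 12 (5.80%) overlapped an exon, beside 43.4%, 47.0% and 9.60% of the other distal regions. A RefSeq transcript start that GENCODE M21 lacks lay within 1 kb of 10 of the 207 regions (4.83%) and of 6.49% of the other distal regions. The number per chromosome went from 3 on chromosomes 14 and 17 to 25 on chromosome 11, which had 20.5 regions per 100 Mb and was the chromosome where they made up the largest share of distal common regions (4.22%). Only 5 pairs of neighbouring members lay within 100 kb of each other. Within 1 Mb of the first assembled base of a chromosome, the end next to the centromere in the mouse, lay 10 of the 207 regions (4.83%) and 58 of the 8503 other distal regions (0.682%).

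The strongest peak of every list was one of these regions. It lay at chr9:35305086-35305725, in an intron of the long noncoding RNA gene Gm33838 and 1874 bp from the nearest start. Its score was 762 in Q7SST, 1635 in Q111SST, 1697 under cyproheptadine, 1641 under loxapine, 1734 under DKI and 1288 under meclizine. Each of these was the highest score of its list. Shifted against itself by 234 bases the region matched at 50.5% of positions, the best of its self-matches. Of its windows 80.7% were unique, while the most frequent occurred 411 times. Copies missing from the reference were not counted, and the part of reads from other copies in the score was not tested. The score is the authors' whole number, which starts at 10 in every list and whose scale was not stated, so scores are given as they stand and lists are compared through ranks.

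The next strongest region lay between genes at chr12:3109735-3110252, 27068 bp from the pseudogene Gm9075. It scored 662 in Q7SST, 1262 in Q111SST, 1325 under cyproheptadine, 1271 under loxapine, 1363 under DKI and 1062 under meclizine, which placed it at position 3 in Q7SST and at position 2 in the 5 mutant lists. The region at chr13:77438769-77439192, in an intron of 2210408I21Rik and nearest to Gm9634, scored 120 in Q7SST, 555 in Q111SST, 620 under cyproheptadine, 537 under loxapine, 771 under DKI and 302 under meclizine. It stood between positions 4 and 6 in the Q111SST, cyproheptadine, loxapine and DKI lists, at 113 in the meclizine list and at 6605 in Q7SST. The region at chr12:67059023-67059948, in an intron of Mdga2, a gene for a neuronal cell-surface protein, scored 58 in Q7SST, 226 in Q111SST, 306 under cyproheptadine, 177 under loxapine, 339 under DKI and 194 under meclizine.

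To compare lists, the strongest peak of each region was ranked among the 20904 common regions of that list, from 0 for the weakest to 100 for the strongest. The region near Gm9075 ranked at 99.99 in every list and the region near Gm9634 at 69.8 in Q7SST and 99.5 to 99.98 in the mutant lists. The Mdga2 intron region ranked at 32.8 in Q7SST and at 91.8 to 99.94 in the mutant lists, so that here too Q7SST was the lowest. The region near Btbd2 (chr10:80659376-80659882), whose gene encodes a BTB domain protein, ranked at 98.5 in Q7SST, 81.3 in Q111SST, 98.9 under cyproheptadine, 97.9 under loxapine, 91.8 under DKI and 86.6 under meclizine. The region near Gm42047 ranked at 93.2 in Q7SST, 73.3 in Q111SST, 83.3 under cyproheptadine, 96.4 under loxapine, 92.8 under DKI and 98.7 under meclizine. In these 2 regions Q111SST was the lowest list. The region near Gm28502 ranked at 87.0, 97.5, 99.9, 88.2, 99.8 and 70.6 in the same order of lists, under cyproheptadine and DKI at the top. The region in an exon of 9030025P20Rik ranked at 71.02 to 89.7 in all 6 lists.

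Apart from this upper tail, the 207 regions were weak, as distal regions were in general. The median rank was 26.8 in Q7SST (95% interval over regions 23.7 to 32.8), 32.6 in Q111SST (28.4 to 38.3), 27.8 under cyproheptadine (23.3 to 31.2), 28.2 under loxapine (23.8 to 33.6), 26.7 under DKI (21.4 to 31.9) and 30.9 under meclizine (27.3 to 34.4). The other distal regions had median ranks of 26.8, 28.4, 30.1, 32.7, 29.8 and 28.8 in the same order, and the regions near starts ranged from 63.9 to 66.7. The median scores of the 207 regions were 50, 59, 39, 61, 38 and 66. Between 36 and 54 of the 207 regions had a rank of 50 or more in a list, and between 4 and 9 a rank of 90 or more. Within 1 region the ranks of the 6 lists spanned a median of 28.6 points (26.4 to 33.0) beside 29.96 points (29.6 to 30.3) in the other distal regions, and the span reached 50 points in 33 regions (15.9%) beside 12.6% of the other distal regions.

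**Figure D2:**
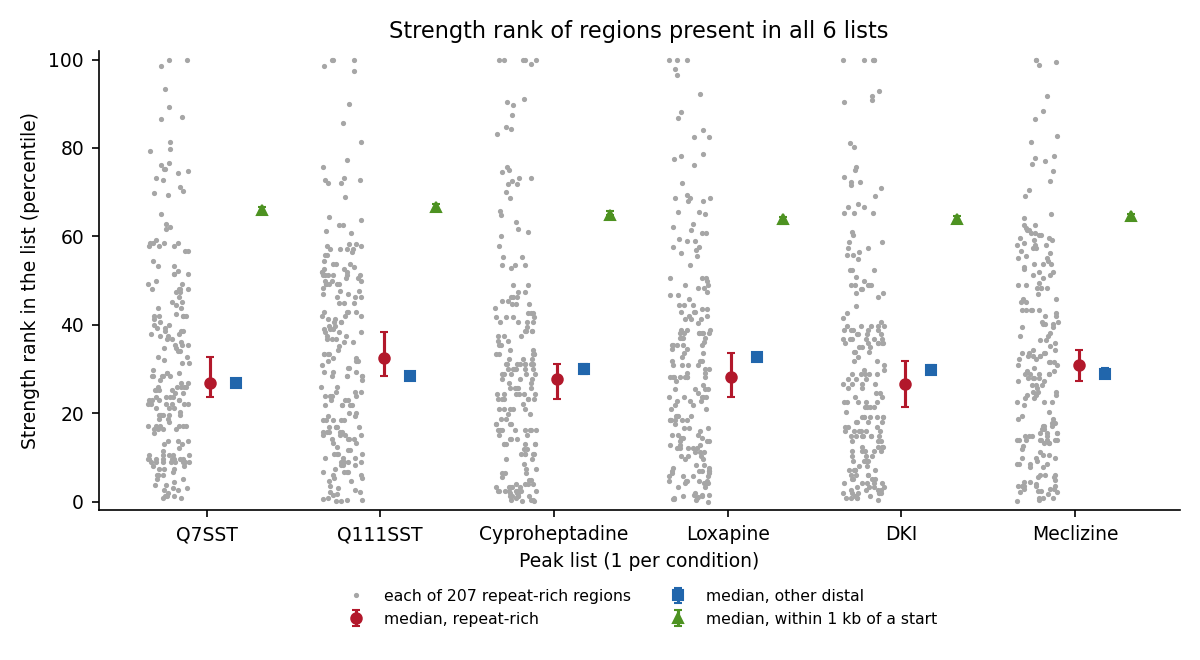
The y axis is the strength rank of a region's strongest peak among the 20904 common regions (percentile) and the x axis the 6 lists, with 1 grey point per repeat-rich region and the medians of 3 classes of region with 95% intervals over regions. Most of the 207 regions lie below a rank of 50 in every list, their medians run from 26.7 to 32.6, and a few points sit at the top.

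Between the wild-type and the mutant line, the repeat-rich regions moved in both directions. The rank in Q7SST minus that in Q111SST had a median of -0.73 points (-4.48 to 1.301), beside -0.37 points in the other distal regions. This median depended on the regions and peaks taken. It was -10.8 points (-15.4 to -0.10) over the 69 regions with at least 90% unique windows and -6.93 points (-10.9 to -4.10) with ranks among all peaks of a list, by which 59 regions (28.5%) were at least 20 points lower, beside a background of 14.5% and 26.5% of the other distal regions, and 19 (9.18%) higher, beside 5.06% and 8.46%. Without the 19 regions of the narrow group described further on, it was -2.48 points (-6.23 to -0.10). A rank at least 20 points higher in Q7SST was seen in 28 regions (13.5%), beside a background of 10.3% of all common regions, and a rank at least 20 points lower in 36 regions (17.4%), beside 9.91%. The other distal regions gave 14.4% and 14.98%, so both shares lay near those of distal regions. The regions highest in Q7SST relative to Q111SST were near Gm24136, Tmprss12 and Gm14409. The region near Gm24136 (chr3:96427716-96428597) scored 131 in Q7SST, 21 in Q111SST, 37 under cyproheptadine, 30 under loxapine, 71 under DKI and 25 under meclizine, a rank difference of 73.2 points. It overlapped a transcript start that RefSeq places at the tRNA gene n-TKctt15 and that GENCODE M21 lacks. The region near Tmprss12 (chr15:100272406-100272826) scored 133, 40, 26, 61, 27 and 148, with ranks of 76.2 in Q7SST, 77.7 under meclizine and 12.96 to 28.2 in the other 4 lists. The region near Gm14409 scored 99, 28, 10, 44, 14 and 31.

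The regions lowest in Q7SST relative to Q111SST were near Dhdh, Map3k19 and the Mdga2 intron described above. The region near Dhdh, which encodes a dihydrodiol dehydrogenase, lay at chr7:45490856-45491750 over an exon of Nucb1 or Tulp2. It scored 18 in Q7SST, 119 in Q111SST, 18 under cyproheptadine, 79 under loxapine, 14 under DKI and 69 under meclizine. Its rank was 70.1 points lower in Q7SST, 67.2 points lower under cyproheptadine and 70.1 points lower under DKI than in Q111SST, the lowest difference in all 3 comparisons. The region near Map3k19 (chr1:127860106-127861004) scored 29 in Q7SST, at a rank of 9.74, and ranked at 65.6 to 91.1 in the 5 mutant lists, so that Q7SST stood apart from all of them.

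In the compound lists the median rank difference of the 207 regions from Q111SST was below 0, and that of the other distal regions above it. It was -2.51 points under cyproheptadine (-4.68 to -0.42), -2.05 under loxapine (-4.04 to -0.036), -2.77 under DKI (-5.58 to 0.0) and -0.56 under meclizine (-2.05 to 0.46), beside 1.38, 3.33, 1.59 and 1.16 points in the other distal regions. Over the 69 regions with at least 90% unique windows the median differences were 0.28 under cyproheptadine (-2.75 to 3.67), 3.81 under loxapine (0.73 to 9.49), 0.46 under DKI (-6.51 to 2.96) and -1.86 under meclizine (-6.81 to 2.12), so that the medians under cyproheptadine, loxapine and DKI turned their sign, with an interval that held 0 for each except loxapine. With ranks among all peaks of a list they were -11.5 under cyproheptadine, 0.55 under loxapine, -16.7 under DKI and -2.50 under meclizine over the 207 regions, beside -5.69, 5.94, -9.93 and -0.585 in the other distal regions. The part of reads from other copies was not tested.

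By count, cyproheptadine had 20 regions at least 20 points higher than Q111SST (9.66%, background 8.88%) and 28 at least 20 points lower (13.5%, background 8.07%). Loxapine had 13 higher (6.28%, background 8.98%) and 20 lower (9.66%, background 7.35%). DKI had 14 higher (6.76%, background 9.63%) and 31 lower (14.98%, background 8.68%). Meclizine had 16 higher (7.73%, background 5.42%) and 16 lower (7.73%, background 3.85%). Without the narrow group described further on, 10 of the other 188 regions were higher under meclizine and 15 lower. The shares of lower regions were above the background in all 4 lists, and above those of the other distal regions, which were 9.21%, 6.40%, 7.90% and 4.82%. The shares of higher regions lay below those of the other distal regions in all 4 lists (13.95%, 16.6%, 14.3% and 9.34%). With ranks among all peaks, 7 regions were higher (3.38%, background 2.75%) and 57 lower (27.5%, background 14.0%) under cyproheptadine, and 16 were higher (7.73%, background 7.67%) and 11 lower (5.31%, background 2.57%) under loxapine, so that the higher ones were then more. Under DKI 2 were higher (0.966%, background 2.02%) and 80 lower (38.6%, background 22.0%). Under meclizine 15 were higher (7.25%, background 2.86%) and 18 lower (8.70%, background 4.15%). The other distal regions gave 5.26%, 15.8%, 3.53% and 5.43% higher and 20.3%, 3.28%, 29.1% and 7.48% lower under the 4 compounds, so that by this ranking the share of higher regions under meclizine lay above theirs.

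**Figure D3:**
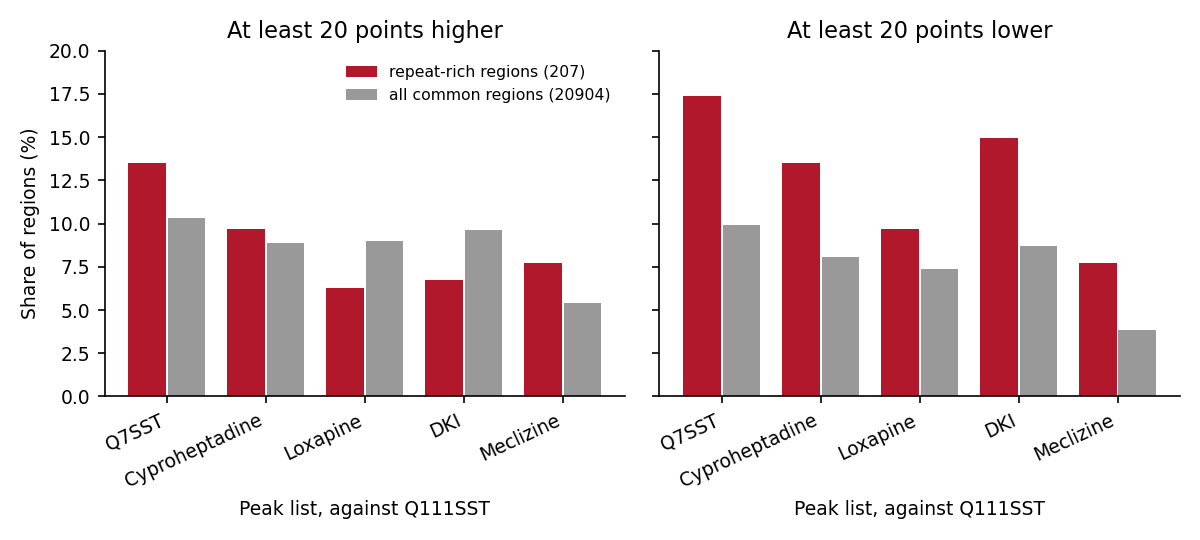
Bars give the share of regions (percent, y axis) whose rank was at least 20 points higher (left) or lower (right) than in Q111SST, for each of the other 5 lists on the x axis, among the 207 repeat-rich regions (red) and all 20904 common regions (grey). The red bars of the right panel run from 7.73 to 17.4% and each is above its grey bar.

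Of the regions that differed most with a compound, the one in an intron of Fbxw4 was high only under cyproheptadine by rank (75.7, beside 9.06 in Q111SST and 2.51 to 38.8 in the other lists). The region near Gm16505 (chr13:3372910-3374451) ranked at 90.5 under cyproheptadine and 75.1 under DKI, beside 49.2 in Q111SST, 38.1 under loxapine, 15.5 in Q7SST and 8.50 under meclizine, and so was among the highest under one compound and among the lowest under another. The region near Scp2, which encodes a sterol carrier protein, ranked at 2.49 under cyproheptadine and at 35.3 to 57.9 in the other 5 lists. Under loxapine, the region near Gm20300 over an exon of Hint3 stood at a rank of 65.1 beside 23.0 in Q111SST, and the region near Vps45 at 43.6 beside 4.73. The lowest differences under loxapine were near Vmn2r82, at 4.22 beside 51.9, and near Gm9529 in an intron of the receptor kinase gene Grk5, at 19.3 beside 72.8. Under DKI the region near Gm24136 was at 57.3 beside 2.12 in Q111SST. The region near Vmn2r82 was low under DKI too, at 6.09. Under meclizine the regions near Tmprss12 and over an exon of the integrin gene Itga6 were higher, at 77.7 and 59.7 beside 15.9 and 14.97 in Q111SST. The region near Gm18671 was lower, at 13.3 beside 54.5.

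The covered width was smaller than at starts in every list and smallest under DKI and cyproheptadine. Covered width is the number of bases of a region under peaks of a list, and its median over the 207 regions was 769 bp in Q7SST, 901 bp in Q111SST, 634 bp under cyproheptadine, 887 bp under loxapine, 628 bp under DKI and 857 bp under meclizine, beside 1418 to 1763 bp in the regions near starts. The median ratio to Q111SST was 0.876 in Q7SST (0.797 to 0.928), 0.762 under cyproheptadine (0.713 to 0.805), 0.967 under loxapine (0.938 to 1.00), 0.745 under DKI (0.709 to 0.790) and 0.981 under meclizine (0.943 to 1.01). The other distal regions had ratios of 0.887, 0.763, 0.964, 0.718 and 0.905, and the regions near starts 0.969, 0.878, 0.984, 0.829 and 0.943. Cyproheptadine and DKI also had the fewest peaks (33721 and 30758), and the part of list size in the widths was not tested.

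In Q7SST the covered width was at least 1.5-fold larger than in Q111SST in 16 regions (7.73%, background 5.42%) and at least 1.5-fold smaller in 60 (28.99%, background 15.1%). Under cyproheptadine 10 were larger (4.83%, background 1.26%) and 73 smaller (35.3%, background 24.6%). Under loxapine 18 were larger (8.70%, background 3.36%) and 20 smaller (9.66%, background 7.19%). Under DKI 8 were larger (3.87%, background 1.11%) and 80 smaller (38.7%, background 28.9%). Under meclizine 15 were larger (7.25%, background 2.77%) and 27 smaller (13.0%, background 7.88%). The background includes the wide regions at starts, and the other distal regions gave 7.99%, 2.31%, 5.83%, 1.87% and 4.07% larger and 26.1%, 36.0%, 9.68%, 41.9% and 13.7% smaller in the same order of lists. The regions with the largest median covered width lay in an intron of Camk2b, a calcium-dependent kinase gene of neurons, near Gm5466 and near AC125218.3. The Camk2b region (chr11:6005664-6009513) was covered over 1212 bp in Q7SST, 3830 bp in Q111SST, 2377 bp under cyproheptadine, 3259 bp under loxapine, 2253 bp under DKI and 3465 bp under meclizine. The Gm5466 region was covered over 411 bp in Q7SST and 1445 to 3186 bp in the mutant lists, while the AC125218.3 region was covered over 1650 bp in Q7SST and 2051 to 2349 bp in them.

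Sequence comparison placed 151 of the 207 regions in 16 groups that shared at least 200 bases at 80% identity or more, with 45, 28, 19, 12 and 9 regions in the 5 largest, and left 56 regions in no group, which can still share shorter or more diverged sequence, as the region near Gm9634 does. The groups were made from the sequence and not from scores or widths. Members of a group share sequence and may share reads, so they are not separate observations. No repeat annotation was used, so the groups are named by their features or numbered by size, and no repeat family is assigned to them.

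The largest group, with 45 regions on 15 chromosomes, had a shared stretch of median identity 96.9% over 938 bases. Its members were CpG-rich, with a median GC content of 54.2%, a CpG ratio of 0.787 and 5.87 CpG per 100 bases, and 43 of the 45 met the island criteria, which was all of the 43 that did. Only 4.82% of their windows were unique (median), and the median window occurred 29 times in the genome. An exact 18-base match to a tRNA 3′ end was present in 44 of the 45, to glutamine tRNA in 42 and to threonine tRNA in 2, so the group is called the glutamine tRNA group. Across all 207 regions 50 held such a match (24.2%), beside 11 of the 8503 other distal regions (0.129%) and 10 of the 12194 near starts. The 18-base ends searched were 118, from 386 tRNA genes on chromosomes 1 to 19. A match is a description of the letters and does not show that the site primes anything.

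The 2 glutamine sites occurred 138 times on chromosomes 1 to 19, and 51 copies (37.0%) lay in regions of all 6 lists, 42 of them in the repeat-rich regions. By list, a peak covered 45 of the 138 copies in Q7SST, 42 in Q111SST, 19 under cyproheptadine, 43 under loxapine, 21 under DKI and 44 under meclizine. The counts under cyproheptadine and DKI were the low ones, as were their numbers of peaks in all and their covered widths. Another 83 copies lay in no region of any list, so most copies of the site carried no peak. In strength the group was among the more even ones. Its median rank was 38.7 in Q7SST, 40.6 in Q111SST, 35.4 under cyproheptadine, 29.1 under loxapine, 34.9 under DKI and 42.0 under meclizine. Its median rank difference from Q111SST was 2.155 points in Q7SST, -3.36 under cyproheptadine, -8.88 under loxapine, -4.89 under DKI and 3.04 under meclizine. The other distal regions gave -0.37, 1.38, 3.33, 1.59 and 1.16 points in the same order. The member with the highest median rank over the lists, near Slc19a2 (chr1:164224458-164225299), which encodes a thiamine transporter, scored 113 in Q111SST and under meclizine, 117 under loxapine, 86 under cyproheptadine and 82 under DKI, and Q7SST lay within that range. Other members scored higher in every list except loxapine, with up to 123 in Q7SST, 121 in Q111SST and 136 under meclizine.

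**Figure D4:**
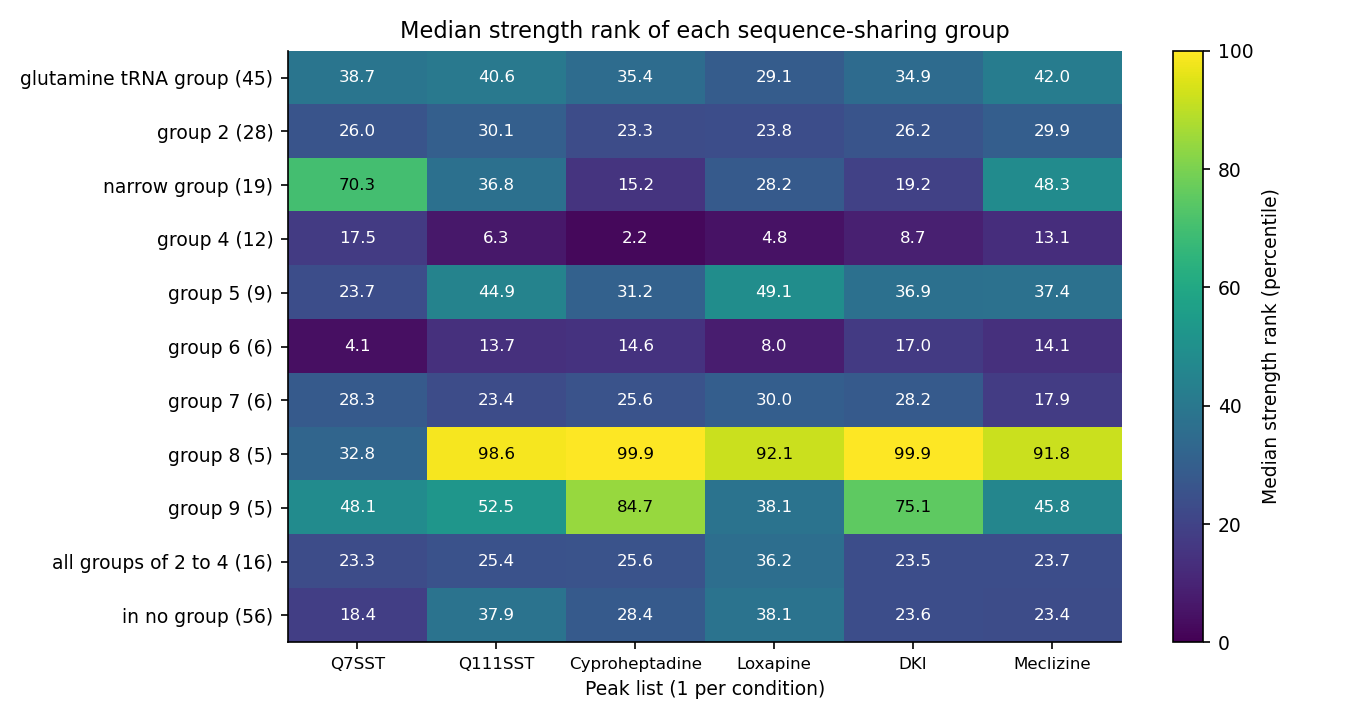
Each cell gives the median strength rank (percentile, colour scale 0 to 100) of 1 sequence-sharing group (rows, number of regions in parentheses) in 1 list (columns). The narrow group stands at 70.3 in Q7SST and between 15.2 and 48.3 in the mutant lists, while group 8 stands at 32.8 in Q7SST and above 91 in the mutant lists.

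Group 2, with 28 regions, was almost wholly masked (median 99.9%, lowest 87.2%) and almost wholly multi-copy, with a median of 0.383% unique windows and a median window found 77.5 times. Its CpG ratio was 0.718 at a GC content of 47.4%, and 0 of the 28 met the island criteria, since none reached 50% GC. An exact match to the phenylalanine and serine tRNA end was present in 4 of the 28. That 18-base site occurred 985 times on chromosomes 1 to 19, and 977 copies lay in no region of any list. The median rank of the group was 26.0 in Q7SST, 30.1 in Q111SST, 23.3 under cyproheptadine, 23.8 under loxapine, 26.2 under DKI and 29.9 under meclizine. Its median rank difference from Q111SST was -3.21 points in Q7SST, -7.42 under cyproheptadine, -6.86 under loxapine, -5.79 under DKI and -2.34 under meclizine. The other distal regions gave -0.37, 1.38, 3.33, 1.59 and 1.16 points in the same order. The strongest member of group 2, near Gm22913 on chromosome 10, scored 144 in Q7SST, 163 in Q111SST, 77 under cyproheptadine, 104 under loxapine, 82 under DKI and 149 under meclizine. Other members lay in introns of Mbnl1, a splicing regulator, and of Gpsm1.

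The third group held 19 regions on 13 chromosomes that were narrow, with a median width of 421 bp (from 360 to 765 bp). Its median score was 121 in Q7SST, 64 in Q111SST, 28 under cyproheptadine, 61 under loxapine, 31 under DKI and 92 under meclizine. Its median rank was 70.3 in Q7SST, 36.8 in Q111SST, 15.2 under cyproheptadine, 28.2 under loxapine, 19.2 under DKI and 48.3 under meclizine. The Q7SST rank minus that of Q111SST had a median of 30.97 points, beside -0.37 points in the other distal regions. In 14 of the 19 regions the Q7SST rank was at least 20 points above that of Q111SST, beside a background of 10.3% of all common regions and 14.4% of the other distal ones, and in none of the 19 was it 20 points below. The narrow regions made up 14 of the 28 repeat-rich regions with such a difference, which left 14 of the 188 others. Q7SST was the highest list in 10 of the 19 regions and meclizine in 7, while cyproheptadine was the lowest in 12 and DKI in 5. Among all 207 repeat-rich regions, these included, Q7SST was the highest list in 49 and meclizine in 44. Cyproheptadine was the lowest in 44 of the 207 and DKI in 38, beside 43 for Q7SST and 42 for loxapine. Across lists the ranges of the narrow regions overlapped, since their Q7SST ranks went from 26.0 to 89.3 and their Q111SST ranks from 8.26 to 58.3.

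The narrow regions held the edge of a multi-copy stretch, which began with the same 20 bases in 15 of the 19. The first window of the stretch occurred 36 to 74 times in the genome (median 44). Windows that lay wholly in the flank, beginning 110 to 50 bases before the edge, were all found once in 9 regions and in part in 5, and none was found once in the other 5. In 3 regions a flank window occurred over 1000 times, so the flank was single-copy in some of the regions and multi-copy in others. In every list except loxapine, a peak covered all 19 regions from 50 to 130 bases into the stretch, and loxapine covered 18 or 19. The shared stretch had a median identity of 98.7% over 290 bases. All 19 matched the first bases of annotated transcripts that start over 1 kb away, as did 41 of the 45 regions of the glutamine tRNA group and 28 of the 28 of group 2. The other distal regions were not searched in this way, so no share stands beside these counts. Among the genes matched by the narrow regions were the long noncoding RNA genes Gm47547 and Gm49708 (18 regions each) and AC132253.9 (17 regions), whose own starts carry the same repeat. The narrow regions near Dydc2, Gm49709 and AC132253.1 lay within Gm47547, Gm49708 and AC132253.9 themselves. No exact tRNA match was found in the 19. A median of 30.1% of their windows was unique, so that reads from other copies of the stretch could be placed here, and the part of such reads in the difference between lists was not tested.

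**Figure D5:**
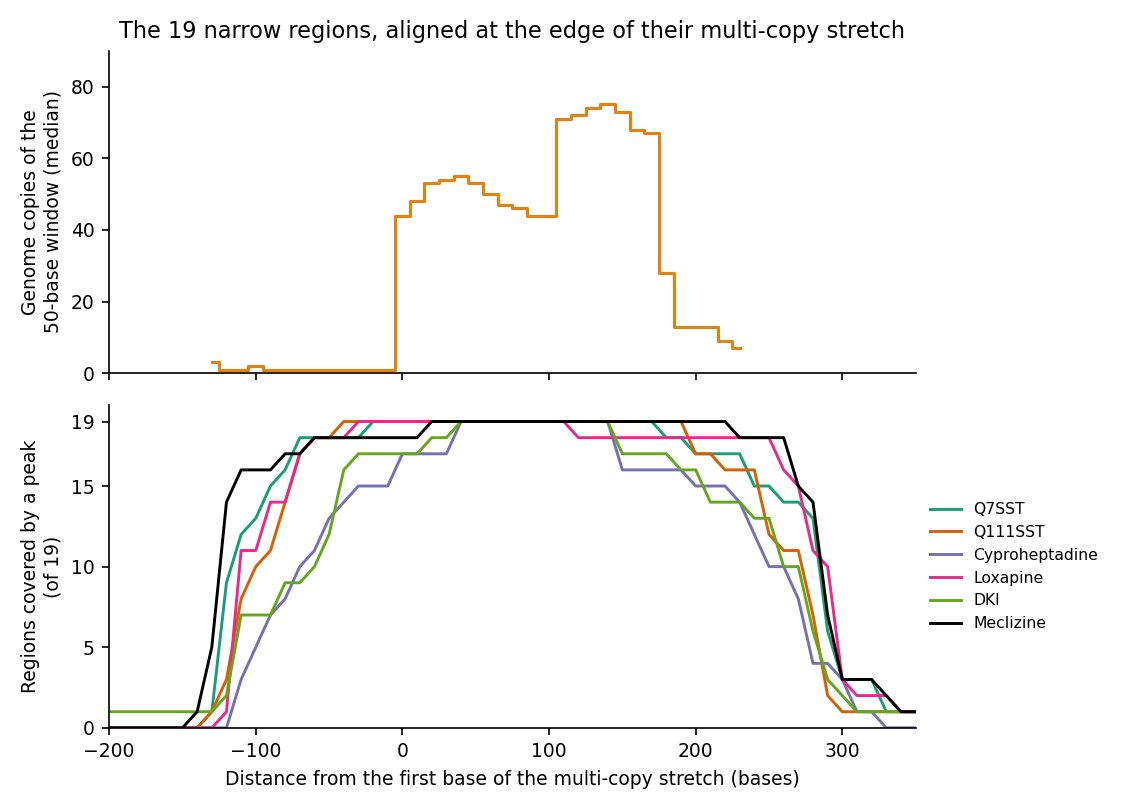
The 19 narrow regions are aligned at the first base of their multi-copy stretch, with the distance in bases on the x axis. The upper panel gives the median number of genome copies of the 50-base window that begins there, which changes from 1 to 44 at the edge, where windows up to 40 bases before it still span the edge, and the lower panel gives the number of the 19 regions covered by a peak in each list, which is 16 or more in every list over the first 150 bases of the stretch.

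The smaller groups showed other orders of the lists. Group 4, with 12 regions of median width 2148 bp and 95.4% masked, was the weakest in the mutant lists, with median ranks of 17.5 in Q7SST, 6.35 in Q111SST, 2.18 under cyproheptadine, 4.77 under loxapine, 8.69 under DKI and 13.1 under meclizine. Group 5, with 9 regions, was poor in CpG (ratio 0.0564) and largely single-copy (94.4% of windows), and ranked at 23.7 in Q7SST, 44.9 in Q111SST, 31.2 under cyproheptadine, 49.1 under loxapine, 36.9 under DKI and 37.4 under meclizine. Its median rank difference from Q111SST was -15.4 points in Q7SST, 6.48 under cyproheptadine, 13.1 under loxapine, -9.83 under DKI and 0.057 under meclizine. The other distal regions gave -0.37, 1.38, 3.33, 1.59 and 1.16 points in the same order. Group 7, with 6 regions that include the one near Gm24136, had median ranks between 17.9 and 29.99 in the 6 lists, while single regions went from 3.13 to 75.3 in Q7SST and from 0.299 to 36.8 in Q111SST.

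Group 6 was covered over less width in the Q7SST list than in the other lists. Its 6 regions were at least 99.1% masked, rich in A and T (GC 36.5%) and had no unique windows by the median, and 2 of them matched a lysine tRNA end exactly. The stretch shared by pairs of them had a median identity of 98.7% over 2123 bases. Reads from 1 copy could therefore be placed at another, and the 6 regions are not separate observations. Peaks covered a median of 235 bp of these regions in Q7SST, 1432 bp in Q111SST, 1485 bp under cyproheptadine, 1926 bp under loxapine, 1516 bp under DKI and 1830 bp under meclizine. The Q7SST values went from 197 to 832 bp and the Q111SST values from 1184 to 2335 bp. Each of the 6 regions was at least 1.5-fold narrower in Q7SST, beside 15.1% of all common and 26.1% of the other distal regions. The peaks were weak in Q7SST, with scores of 19 to 44 and a median rank of 4.15, beside 31 to 58 and 13.7 in Q111SST. The width of 197 bp was the lowest of any common region in Q7SST. The median rank difference was -9.25 points, beside -0.37 in the other distal regions. The part of peak strength and of read placement in the widths was not tested. Of the 51 copies of the lysine site on chromosomes 1 to 19, a peak covered 0 in Q7SST, 6 in Q111SST, 1 under cyproheptadine, 4 under loxapine, 1 under DKI and 2 under meclizine.

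Group 8, which holds 3 of the 4 regions with the highest median rank over the lists, and group 9 each had 3 of 5 regions within 1 Mb of the first assembled base of a chromosome. Of the 3 strong regions this held only for the one near Gm9075. Group 8 ranked at a median of 32.8 in Q7SST, 98.6 in Q111SST, 99.9 under cyproheptadine, 92.1 under loxapine, 99.9 under DKI and 91.8 under meclizine, but its members spread from a rank of 1.36 to 100 in Q7SST and from 8.50 to 100 in the mutant lists. Each of these medians is the value of the Mdga2 intron region. Group 9, whose members carry perfect runs of short purine-rich units (AAAG in 4 and AAGG in 1) with windows found up to 90380 times (median over the 5 of the highest count), ranked at 48.1 in Q7SST, 52.5 in Q111SST, 84.7 under cyproheptadine, 38.1 under loxapine, 75.1 under DKI and 45.8 under meclizine. Its median rank difference from Q111SST was -9.06 points in Q7SST, 5.23 under cyproheptadine, -16.7 under loxapine, 17.6 under DKI and -16.8 under meclizine. The other distal regions gave -0.37, 1.38, 3.33, 1.59 and 1.16 points in the same order. The 56 regions in no group ranked at 18.4 in Q7SST, 37.9 in Q111SST, 28.4 under cyproheptadine, 38.1 under loxapine, 23.6 under DKI and 23.4 under meclizine. Their median rank difference between Q7SST and Q111SST was -10.6 points, beside -0.37 in the other distal regions.

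At the edges of the rule, members close to 50% masked were near Gm16263 (50.0%) and near Mt4, a metallothionein gene (50.0%), and the distal regions just outside lay in introns of Cercam (49.95%), Cpe (49.9%) and Nrd1 (49.8%). Their median ranks were 2.18 and 0.691 inside and 55.3, 9.77 and 29.5 outside. The members nearest to a start lay 1033 bp away in an intron of Gpsm1 and 1326 bp from Gm25277, with median ranks of 38.9 and 12.6. A region in an intron of Steap2 lay 1326 bp from a start as well, with a median rank of 10.9. The regions kept out by distance lay 970 bp from Gm22862 and 865 bp from a start of Csf2ra, with median ranks of 58.3 and 3.07. The Gpsm1 region scored 68, 83, 49, 58, 39 and 80 in the order Q7SST, Q111SST, cyproheptadine, loxapine, DKI and meclizine.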

How the data were processed

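H3K4me3 ChIP-Seq peak lists were analysed for 6 conditions of STHdh cells, 1 list per condition, grouped by the sample titles. The deposited lists give the authors' whole-number score per peak, whose scale, input control and pooling of replicates were not stated. Trimmomatic 0.36, Bowtie2, SAMtools 1.3, MACS2 and the build mm10 (GRCm38) are named in the submitters' processing notes, and 0 chromosomes had a peak past their end in this build. Depth is unknown.

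Peaks overlapping by at least 1 bp were merged in Python 3.11.15. Ranks are percentiles of the strongest peak among common regions (ties averaged), differences are against Q111SST, and calls used 20 rank points or 1.5-fold covered width. Intervals of medians (95%, order statistics) and Wilson intervals of shares run over regions. Unique windows were 50-base words counted in the reference on both strands. Groups came from blastn 2.17.0 (80% identity, 200 bases, single linkage). Transcript starts were GENCODE M21. Functions were tested on simulated data. Named regions were those with the highest median rank (8), the largest rises and falls against Q111SST (3 each for Q7SST, 2 each per compound), the largest covered width (3) and those at the edges of the rule, and the strongest members of the groups were named in addition, after their values were seen. Some regions and markers that the rule names are not reported here. The regions and measures were chosen with earlier results of these data known, and the groups, tRNA, transcript start, edge and self-match descriptions were added after seeing the data. Alternatives for the rule, the rank, the score and uniqueness were tried.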

Additional observations from a re-analysis of the deposited data

How the results depend on the processing

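No paired analysis was possible because only 1 list stood for each condition. Of 141 alternative values for 31 results, 83 stayed within the interval or within 1.5 times the count, 54 moved and 4 turned a direction whose interval did not hold 0. The sign of a median difference also changed in 3 values whose interval held 0 (DKI at 90% unique windows, Q7SST and meclizine at 75% masked). The cause of each was not tested except where the setting itself fixes it. The rule gave 416 regions at 40% masked, 75 at 75%, 39 with the stricter score threshold and 74 where each list had to cover 50% of the region.

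Ranked among all peaks of a list, the median ranks were 50.0 in Q7SST, 61.3 in Q111SST, 48.6 under cyproheptadine, 61.4 under loxapine, 41.9 under DKI and 57.8 under meclizine, because peaks outside the common regions entered the ranking. The median differences from Q111SST then were -6.93 in Q7SST, -11.5 under cyproheptadine, 0.55 under loxapine, -16.7 under DKI and -2.50 under meclizine, with 19 regions at least 20 points higher and 59 lower in Q7SST, 7 and 57 under cyproheptadine, 16 and 11 under loxapine, 2 and 80 under DKI, and 15 and 18 under meclizine, beside backgrounds of 5.06% and 14.5%, 2.75% and 14.0%, 7.67% and 2.57%, 2.02% and 22.0%, and 2.86% and 4.15% of all common regions. At 75% masked the median ranks were 22.2 under cyproheptadine, 20.97 under loxapine and 20.3 under DKI, the meclizine width ratio 1.02, and the masked share 97.4%, GC 47.2% and CpG ratio 0.645. With 50% of the region covered in each list they were 27.5 in Q111SST, 22.5 under cyproheptadine and 21.3 under DKI.

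With at least 50% unique windows the median rank was 22.0 in Q7SST and 38.1 under loxapine, the median differences -8.20 for Q7SST, 0.0 for cyproheptadine and 3.37 for loxapine, and the width ratios 0.749 for Q7SST, 0.698 for DKI and 0.915 for meclizine. With at least 90% the median ranks were 19.6 in Q7SST, 35.3 under loxapine and 24.1 under meclizine, and the differences -10.8 for Q7SST, 0.28 for cyproheptadine, 3.81 for loxapine and 0.46 for DKI. At 10 rank points 52 regions were higher and 71 lower in Q7SST, 42 and 63 under cyproheptadine, 40 and 58 under loxapine, 38 and 69 under DKI, and 43 and 49 under meclizine, where 16.4% (meclizine, higher) to 23.7% (DKI, lower) of all common regions were past that limit. Without the 19 narrow regions, a setting chosen after seeing the data, 14 were at least 20 points higher in Q7SST and 10 under meclizine. At 90% identity over 300 bases, also chosen afterwards, 108 regions fell in groups, the largest still held the same 45 and the narrow group's largest piece held 11.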
